A study of Mus musculus with 96 samples.

Results

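Autosomal gene expression was compared between XX and XY- mice, both with ovaries, in the nucleus accumbens (NAc), a ventral striatal region of reward and motivation. The genes described are the 18551 genes of chromosomes 1 to 19 that passed the filter on low counts, out of 19046 autosomal genes and 19918 genes in the deposited count table. The libraries are 11 from XX mice (5 unstressed controls and 6 stressed) and 13 from XY- mice (7 controls and 6 stressed), of 96 in the series. The mice belong to the FCG model, in which the testis-determining gene Sry is absent from the Y chromosome (Y-) and, in the XXSry and XY-Sry genotypes, is supplied as a transgene. Neither genotype compared here carries that transgene, so both have ovaries and they differ in having a second X chromosome or a Y- chromosome. The Y- of FCG stocks is also known to carry a stretch of the X, described below with Tlr7. Stressed mice had 3 restraint sessions of 1 hour on alternating days within 6 days. Treatment and cohort (3 cohorts) entered the model as covariates. Bulk RNA came from tissue punches, 1 library per animal and region. The labels state neither strain nor age.

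Interferons are cytokines that cells release when they sense viral or misplaced nucleic acids. Their receptors activate STAT and IRF transcription factors, which switch on a large set of interferon-stimulated genes. These genes encode nucleic acid sensors, antiviral effectors, GTPases that attack the membranes of intracellular pathogens, and proteins that present peptides on MHC class I. In the brain, microglia, endothelial cells, astrocytes and neurons can all take up this state.

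The libraries held 55.2 to 78.3 M counts in XX mice and 65.0 to 79.9 M in XY- mice. Levels below are CPM (counts scaled to 1 M per library) after TMM scaling, except for sex-linked genes, which use plain library totals. Xist, which coats the inactive X, ranged from 1411 to 2196 CPM in XX and did not exceed 2.93 CPM in XY- mice, and Ddx3y, a Y-linked helicase gene, did not exceed 0.145 CPM in XX and was at least 63.9 CPM in XY- mice, so the libraries followed their labels. Markers of medium spiny neurons, the principal cells of the region, summed to 7648 to 10055 CPM in XX and 5464 to 9736 CPM in XY- libraries. The first and second principal components of the autosomal genes, with 23.4% and 17% of the variance, did not separate the genotypes.

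Of the autosomal genes, 54 (0.291%) were called at an edgeR adjusted p below 0.05. The called genes were almost all lower in XX: 52 fell (0.28% of those tested) and 2 rose (0.0108%). At an unadjusted p below 0.05, 663 autosomal genes (3.57%) lay below 0, while over all autosomal genes 9005 lay below 0 and 9546 above, with a median log2 fold change of 0.00296. The falls ran from -0.42 to -4.73 with a median of -1.27. Interferon-related lists held 38 of the 54 called genes. These 7 lists had 6, 15, 18, 55, 18, 25 and 11 tested members among the 18551 genes. The lists were drawn up with earlier results of these data known. Of the 54, 49 are annotated as protein coding, and the share over all tested genes was not computed. In no autosomal gene (0 of 18551) were the 11 XX levels and the 13 XY- levels completely apart. The number of calls rested on single libraries: it was 18, 20 and 24 without stressed XX mice 9, 18 and 25, it was 23 and 34 without control XX mice 2 and 35, it was 35 and 19 without control XY- mice 6 and 36, and it was 88 without control XY- mouse 16. Mice 9, 18 and 25 are all the XX mice of cohort 3, and mouse 16 is also of cohort 3. Mice 2 and 6 are of cohort 1, and mice 35 and 36 are of cohort 2. Without stressed XY- mouse 32 the number called higher went from 2 to 12. In each of these fits every one of the 52 genes that was tested still lay below 0, but the genes were chosen for that direction in the same libraries.

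**Figure D1:**
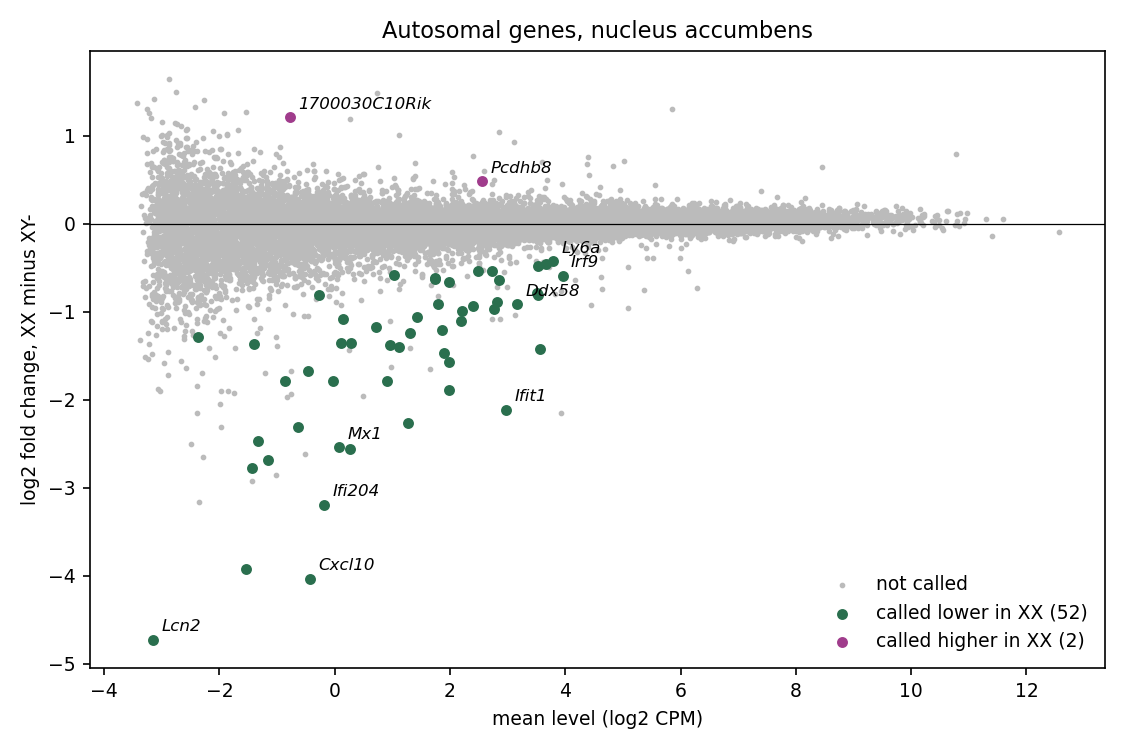
Log2 fold change (XX minus XY-) of the 18551 autosomal genes tested against their mean level in log2 CPM. The 52 genes called lower in XX lie below the axis down to -4.73, and the 2 called higher are Pcdhb8 and 1700030C10Rik.

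Of the 15 nucleic acid sensors tested, 5 were called, all lower in XX, 13 lay below 0, and the list's median was -0.26. Ddx58 (ENSMUSG00000040296, chromosome 4, 40203773 to 40239828 in GRCm38), which encodes the cytosolic RNA helicase RIG-I, had the smallest p of all autosomal genes. Its lowest, median and highest levels were 5.19, 6.01 and 8.40 CPM in XX (mean 6.22 ± 1.02, SD, n = 11) and 6.59, 10.6 and 17.3 CPM in XY- mice (11.3 ± 3.63, SD, n = 13). In 10 of 13 XY- mice Ddx58 exceeded every XX mouse, and the groups overlapped through XY- controls 16 and 19 and stressed XY- mouse 15. XX minus XY- was -0.91 on the log2 scale (SE 0.143, edgeR adjusted p = 0.00119).

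Ifih1, which encodes the long double-stranded RNA sensor MDA5, averaged 4.88 ± 1.08 CPM in XX against 8.81 ± 3.07 in XY- libraries (-0.89, SE 0.170). Zbp1, a sensor of left-handed nucleic acid helices, was scarce in XX at 0.103 ± 0.0768 CPM against 0.672 ± 0.463 (-2.68, SE 0.499). It exceeded all XX mice in 11 of 13 XY- mice. Nlrc5, a transactivator of MHC class I genes, differed by -1.38 (SE 0.278), and Eif2ak2, the kinase PKR that stops translation on binding double-stranded RNA, by -0.78 (SE 0.170). Nlrc5 and Eif2ak2 overlap measured genes on the opposite strand, and since the use of strand in counting is not given, their values are uncertain. The most abundant uncalled sensors were Adar, an RNA-editing enzyme (0.08), Tlr3, an endosomal double-stranded RNA receptor (-0.10), and Unc93b1, a trafficking chaperone of endosomal receptors (-0.23). Tlr7, an X-linked endosomal receptor for single-stranded RNA and so not among the autosomal genes, averaged 3.25 ± 0.588 CPM in XX against 8.27 ± 1.97 in XY- libraries (-1.35, SE 0.116). In FCG stocks a stretch of the X that includes Tlr7 is known to have moved onto the Y-. Other X-linked genes reported in that stretch were also lower in XX. Prps2, Frmpd4 and Msl3 stood at -1.01, -0.996 and -1.07, and Arhgap6, Hccs and Tmsb4x at -1.10, -0.996 and -0.959. Extra copies of Tlr7 or of these genes, the Y- chromosome itself and the second X cannot be told apart in this comparison.

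Interferons and their receptors were not called in either direction: 0 of 6 tested members passed (edgeR), 2 had an unadjusted p below 0.05, and their median was -0.01. Ifnb1 and Ifng, the genes of interferon beta and gamma, were not among the genes tested. The receptor genes Ifnar1, Ifngr1 and Ifngr2 stood at 0.01, -0.13 and 0.03. Ifnlr1, the receptor for type III interferons and picked with its values known, lay the other way from the interferon-induced genes, with 0.334 ± 0.127 CPM in XX against 0.179 ± 0.0747 in XY- libraries (1.01, SE 0.269, edgeR adjusted p = 0.126). Among 18 signalling factors, 2 were called, both lower, 15 lay below 0, and the median was -0.21.

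Usp18, which strips the ubiquitin-like protein ISG15 from targets and damps receptor signalling, ranged over 0.215, 0.580 and 2.18 CPM (lowest, median, highest) in XX and 0.549, 3.62 and 6.93 CPM in XY- mice. It was above every XX mouse in 10 of 13 XY- mice and differed by -2.27 (SE 0.417, edgeR adjusted p = 0.0131). Irf9, the DNA-binding subunit of the complex that drives type I interferon targets, averaged 12.2 ± 1.45 CPM in XX against 18.3 ± 5.01 in XY- libraries (-0.59, SE 0.128). Its partner Stat2 was uncalled at -0.19, as were the kinase genes Jak1 (0.06) and Tbk1 (-0.01).

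The antiviral effectors held the most calls, 22 of 55 tested, all lower in XX. All 55 lay below 0, with a median of -0.97 against 0.00296 over all autosomal genes. Mx1, a dynamin-like GTPase that blocks virus replication, ranged over 0.0846, 0.287 and 0.657 CPM in XX and 0.366, 1.67 and 4.28 CPM in XY- mice. The lowest XY- values were again those of controls 16 and 19 and stressed mouse 15, and 10 of 13 XY- mice were above every XX mouse. XX minus XY- was -2.54 (SE 0.402, edgeR adjusted p = 0.00162). Its neighbour Mx2, annotated as a polymorphic pseudogene, differed by -1.25 (SE 0.226).

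Ifit1, which binds foreign RNA caps, ranged over 1.40, 2.33 and 6.33 CPM in XX and 1.46, 10.3 and 25.9 CPM in XY- mice. The spread in XY- mice was wide, from the level of the XX mice to several times it, and the difference was -2.11 (SE 0.444, edgeR adjusted p = 0.0346). Ifit3, which binds and stabilizes IFIT1, averaged 6.27 ± 1.81 CPM in XX against 16.4 ± 8.32 in XY- libraries (-1.42, SE 0.284). Ddx60, a helicase gene linked to RNA sensing, had 1.71 ± 1.10 against 5.78 ± 3.60 CPM (-1.89, SE 0.371). Oas1b and Oas2, of the oligoadenylate synthetase family, differed by -1.79 (SE 0.334) and -1.36 (SE 0.282). Oas1b is annotated as a polymorphic pseudogene.

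Ifi204 and Ifi207, of the PYHIN family of DNA-binding proteins, had the largest falls among the effectors, -3.19 (SE 0.521) and -3.92 (SE 0.701). Ifi207 was near the limit of detection in XX, with levels of 0 to 0.105 CPM, against 0.0132 to 1.69 CPM in XY- mice. Slfn8, a Schlafen gene, differed by -1.40 (SE 0.253), Rtp4, which regulates interferon responses, by -1.46 (SE 0.290), Ifi44 by -1.79 (SE 0.368) and Phf11d by -1.36 (SE 0.292). Rtp4 overlaps Masp1 on the opposite strand. Rsad2, the antiviral enzyme viperin, and the ADP-ribosyltransferase genes Parp9, Parp12 and Parp14 were also called, at -1.21, -0.94, -0.46 and -0.97. They were chosen after their values were seen. Members of the Mx, Ifit, Oas, PYHIN and Schlafen families resemble each other in sequence, so reads may have been split among them and single values are uncertain. The most abundant effectors were uncalled, with Trafd1 at -0.05, Shisa5 at -0.05 and Cmpk2 at -0.17.

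**Figure D2:**
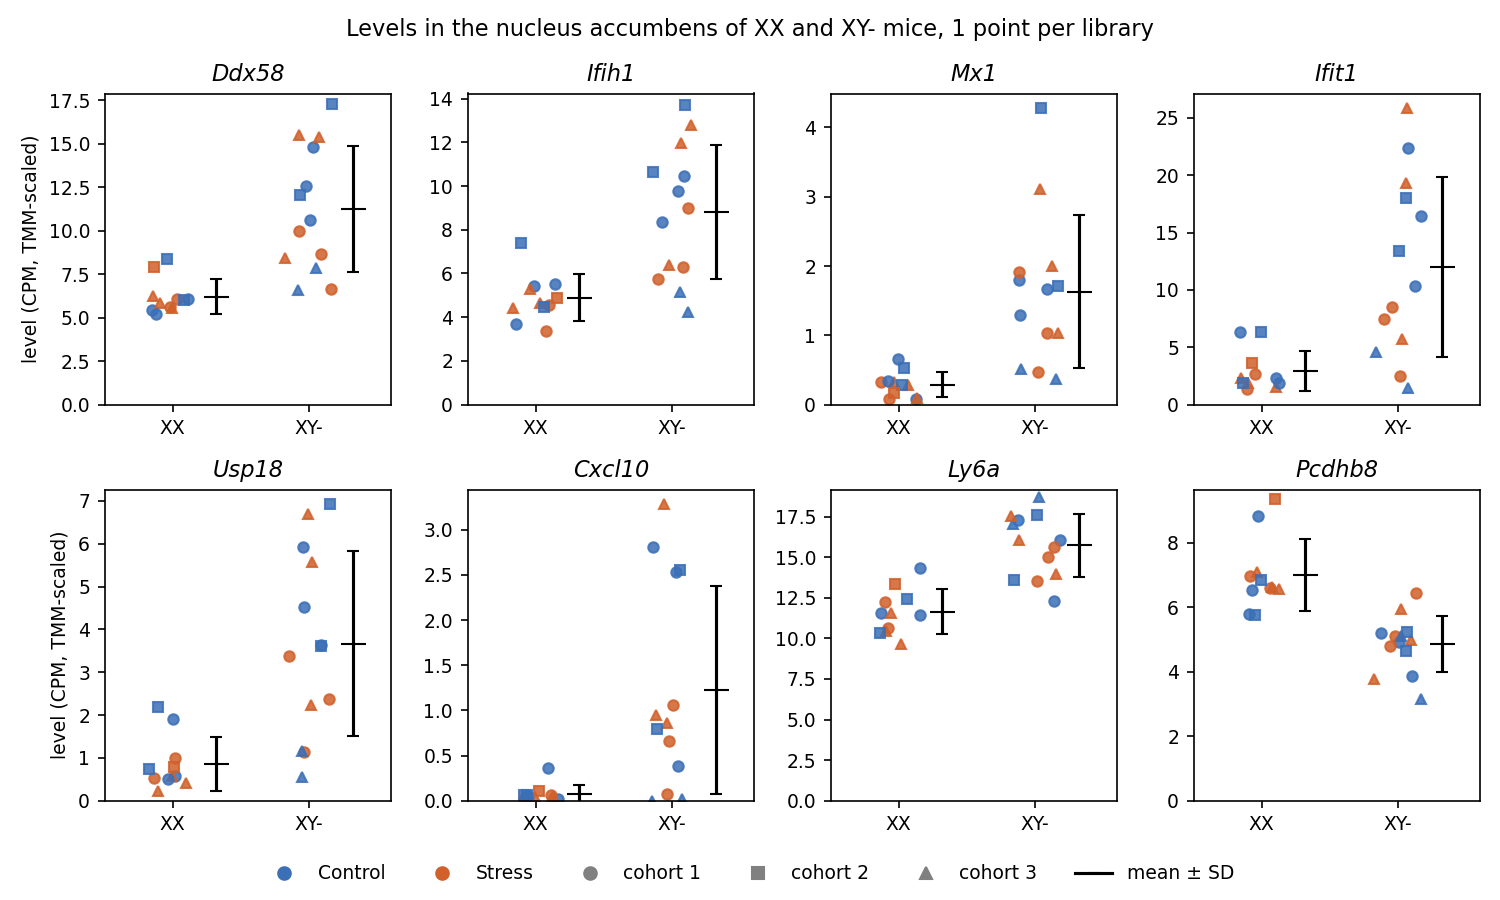
Levels in TMM-scaled CPM of 8 called genes in 11 XX and 13 XY- libraries, 1 point per library, coloured by treatment and shaped by cohort, with the mean and SD of each genotype beside the points. Ddx58, Mx1 and Usp18 exceed every XX library in 10 of 13 XY- libraries, and Pcdhb8 is higher in XX.

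Interferon-induced GTPases, which disrupt the vacuoles of intracellular pathogens, had 6 calls among 18 tested, all lower in XX; all 18 lay below 0 and 17 had an unadjusted p below 0.05, where 6.08% of all autosomal genes did. The median was -0.92. Irgm1, a regulator of the family, averaged 8.28 ± 1.67 CPM in XX against 14.1 ± 4.91 in XY- libraries (-0.81, SE 0.166). Igtp (Irgm3), a related regulator, differed by -0.99 (SE 0.204), Iigp1 (Irga6), which coats pathogen vacuoles, by -1.58 (SE 0.321) and its relative Gm4951 by -2.56 (SE 0.544). The guanylate-binding protein genes Gbp6 and Gbp7 differed by -1.68 (SE 0.338) and -0.64 (SE 0.141), and Gbp3, Gbp9 and Irgm2 were uncalled at -1.09, -0.45 and -0.54.

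Of 25 genes of MHC class I and peptide loading, 2 were called lower, 23 lay below 0 and the median was -0.34. H2-Q7, a nonclassical class I gene, averaged 0.195 ± 0.114 CPM in XX against 0.777 ± 0.652 in XY- libraries (-1.79, SE 0.384), and reads of this family can be split among its members. Tap1, which carries peptides into the endoplasmic reticulum, differed by -0.92 (SE 0.196) and overlaps Psmb9 on the opposite strand. B2m, the light chain shared by all class I molecules, averaged 58.6 ± 11.6 CPM in XX against 94.5 ± 39.9 in XY- libraries and was uncalled (-0.73, SE 0.189, edgeR adjusted p = 0.141). MHC class II had no call among 6 tested (edgeR; 2 at an unadjusted p below 0.05), with Cd74, the invariant chain, at -0.73.

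Chemokines and cytokines held 1 call among 11 tested, and all 11 lay below 0. Cxcl10, a chemokine that attracts T cells, ranged over 0.0141, 0.0549 and 0.363 CPM in XX and 0, 0.856 and 3.28 CPM in XY- mice. In XY- control 19 no read was counted, while 10 of 13 XY- mice exceeded every XX mouse, and the difference was -4.03 (SE 0.797, edgeR adjusted p = 0.0211). Cxcl10 overlaps Art3 on the opposite strand. Il18, an inflammasome cytokine, Il18bp, its inhibitor, and Tgfb1 were uncalled at -0.11, -0.02 and -0.06.

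**Figure D3:**
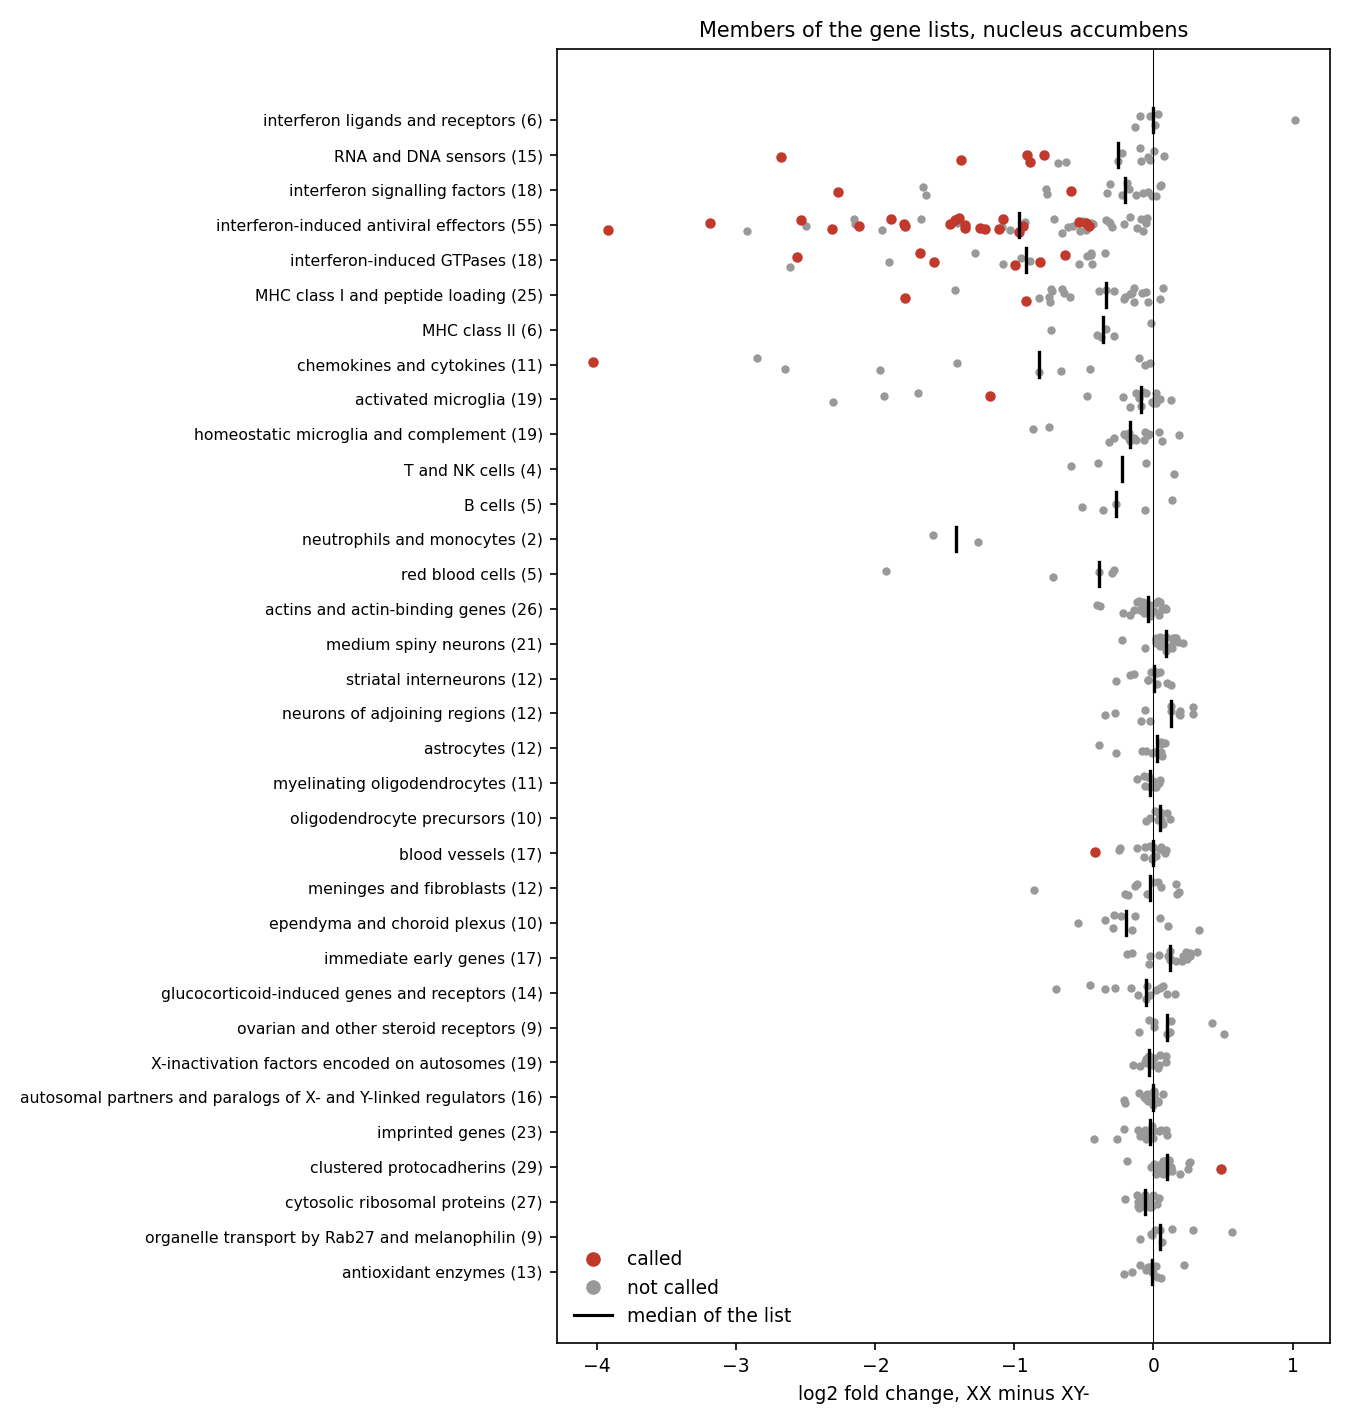
Log2 fold change (XX minus XY-) of the tested members of each gene list, with called genes in red, others in grey and a bar at the list's median; the number tested is in parentheses. All members of the effector and GTPase lists lie below 0, with medians of -0.97 and -0.92. Medians are 0.09 for medium spiny neurons, 0.03 for astrocytes, -0.02 for myelinating oligodendrocytes and -0.17 for homeostatic microglia and complement.

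Outside the interferon-related lists, Ly6a (Sca-1, ENSMUSG00000075602, chromosome 15, 74994877 to 74998031), a surface protein of endothelial cells that interferon also induces, had the smallest fall of all called genes with little scatter. Its lowest, median and highest levels were 9.63, 11.6 and 14.3 CPM in XX and 12.3, 16.05 and 18.7 CPM in XY- mice. Ly6a exceeded every XX mouse in 9 of 13 XY- mice, and it differed by -0.42 (SE 0.0753, edgeR adjusted p = 0.00561). It was the 1 call among 17 genes of blood vessels, whose median was -0.01, and Flt1, Rgs5 and Slco1a4, other vascular markers, stood at -0.01, -0.06 and 0.00.

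Microglial lists held 1 call. Of 19 markers of homeostatic microglia and complement, 0 were called by edgeR and 5 had an unadjusted p below 0.05, with a median of -0.17; their summed level ranged from 529 to 658 CPM in XX and from 467 to 833 CPM in XY- mice. Of these 19 markers 16 lay below 0, and Cx3cr1 and Csf1r stood at -0.06 and -0.12. Picked with their values known, the 3 above 0 were Fcrls (0.18), P2ry12 (0.06) and P2ry13 (0.04). Siglech, also picked with its values known, had the smallest adjusted p of the list (-0.32, SE 0.0759, edgeR adjusted p = 0.0578). Among 19 genes of activated microglia, Cd52, a surface glycoprotein of leukocytes, was called lower (-1.17, SE 0.261), 14 lay below 0 and 6 had an unadjusted p below 0.05, with a median of -0.09. The summed level, which abundant members dominate, was 2369 to 3100 CPM in XX and 2395 to 2854 CPM in XY- mice. Scarcer members, picked with their values known, had large negative values without a call: Cst7, a protease inhibitor of activated microglia, stood at -2.30 (SE 0.537, edgeR adjusted p = 0.0535), Itgax, an integrin, at -1.94 (SE 0.552) and Clec7a, a lectin receptor, at -1.69 (SE 0.522). Cd52 overlaps Crybg2 on the opposite strand. In bulk tissue, fewer cells of a type and less RNA per cell cannot be told apart, and the part of microglial number in the interferon genes was not tested.

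Blood-cell markers held no call. None of 4 genes of T and NK cells, 5 of B cells, 2 of neutrophils and monocytes and 5 of red blood cells was called by edgeR (1, 0, 2 and 2 had an unadjusted p below 0.05). Ccr2 and S100a9, of monocytes and neutrophils, had 0.0943 and 0.0514 CPM in XX and 0.204 and 0.138 CPM in XY- mice, and 10 of 14 T and NK cell genes, Cd3d, Cd3e, Cd3g and Cd8a among them, were not among the genes tested. Ptprc, the leukocyte marker CD45 that microglia also express, averaged 3.96 ± 0.794 CPM in XX against 5.67 ± 2.23 in XY- libraries (-0.59, SE 0.151, edgeR adjusted p = 0.102). All 5 red blood cell genes lay below 0, with a median of -0.39, and Slc4a1, an anion exchanger picked with its values known, stood at -1.93 (SE 0.478, edgeR adjusted p = 0.0829). The part of blood cells in the interferon genes was not tested. The summed level of red blood cell genes ranged from 19.2 to 127 CPM in XX and from 46.4 to 125 CPM in XY- mice. No gene was called among 21 markers of medium spiny neurons (median 0.09), 12 of astrocytes (0.03), 11 of myelinating oligodendrocytes (-0.02) or 17 immediate early genes (0.12). In these lists 1, 1, 0 and 3 genes had an unadjusted edgeR p below 0.05. Of the 21 medium spiny neuron markers, 19 lay above 0.

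The 2 genes called higher in XX belonged to none of these programmes. Pcdhb8 (chromosome 18, 37355121 to 37358604), a clustered protocadherin of neuronal self-recognition, ranged over 5.75, 6.64 and 9.35 CPM in XX and 3.15, 4.99 and 6.45 CPM in XY- mice. The groups overlapped in part, and the difference was 0.48 (SE 0.0974, edgeR adjusted p = 0.0191). Of 29 clustered protocadherins 27 lay above 0, with a median of 0.09, and no other was called; these genes share sequence. The noncoding transcript 1700030C10Rik, on chromosome 12 and picked with its values known, averaged 0.748 ± 0.259 CPM in XX against 0.404 ± 0.250 in XY- libraries (1.21, SE 0.256, edgeR adjusted p = 0.0235).

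The remaining called genes, in no list and chosen after their values were seen, were all lower in XX. Lcn2, the siderophore-binding lipocalin of acute inflammation, had the largest fall at -4.73 (SE 0.931), from few reads: at most 0.0176 CPM in XX and at most 0.409 CPM in XY- mice. Slc11a1, a phagosomal metal transporter, and Pld4, a lysosomal nuclease of microglia and other myeloid cells, differed by -0.58 (SE 0.116) and -0.53 (SE 0.112). Trim12a and Trim30d, of a TRIM cluster on chromosome 7, Ube2l6, an ISG15-conjugating enzyme, Cd274, the checkpoint ligand PD-L1, Treml2, Serpina3g, Phf11b, the pseudogene Gm1966 and the long noncoding RNA AU020206 made up the rest, at -0.62 (Cd274) to -2.77 (Gm1966).

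The called genes were spread over 16 autosomes, with none on chromosomes 9, 10 and 13, and chromosome 16 had the highest share (5 of 545 tested, 0.917%). Some were near neighbours: 20 called genes lay in 9 groups whose starts were within 500 kb of the next. The share of such neighbours over all tested genes was not computed, so this count has no baseline. On chromosome 1 between 173630917 and 173766943, Ifi209, Ifi207 and Ifi204 were 3 of 4 genes tested, and on chromosome 16 between 97447035 and 97560900 Mx1 and Mx2 were the 2 tested. The pairs Ifit3 and Ifit1 (chromosome 19), Slfn8 and Slfn2 (chromosome 11) and Oas2 and Oas1b (chromosome 5) are families of the same kind.

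Upstream sequences were searched for the core of the interferon-stimulated response element, 2 copies of GAAA with any 2 bases between them (TTTC in place of GAAA on the other strand), on both strands and with overlaps counted, in the 250 bases before the start of RefSeq genes (GRCm38.p6). It was found in 14 of the 35 genes called lower that had an entry (40.0%) and in 401 of 12469 autosomal genes tested with an entry (3.22%). Among GTPases it was in 9 of 12 (75.0%), among effectors in 20 of 44 (45.5%) and among sensors in 0 of 10. A match is a description of the sequence and not a shown binding site. The upstream stretches of 6 called genes with a match are given 5′ to 3′ on the strand of the gene, ending at a RefSeq start of the gene, with matches in capitals. They are the 6 named called genes with the smallest p that had a match and met 1 further condition. The entry had to contain the start of a GENCODE M21 transcript of the gene, which left out Ifi207. The position and strand of the element differ among these genes.
Slfn8 (chr11:83020811-83021060, minus strand): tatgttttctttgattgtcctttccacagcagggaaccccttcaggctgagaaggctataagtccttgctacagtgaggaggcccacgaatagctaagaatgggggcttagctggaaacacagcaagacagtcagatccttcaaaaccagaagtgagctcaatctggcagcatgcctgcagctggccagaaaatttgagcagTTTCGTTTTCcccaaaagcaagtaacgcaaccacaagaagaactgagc
Ddx60 (chr8:61927837-61928086, plus strand): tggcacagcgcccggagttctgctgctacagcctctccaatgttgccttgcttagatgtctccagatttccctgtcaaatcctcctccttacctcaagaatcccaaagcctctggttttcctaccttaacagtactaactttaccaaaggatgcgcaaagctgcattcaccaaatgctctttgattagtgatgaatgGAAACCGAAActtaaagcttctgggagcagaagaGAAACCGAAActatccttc
Igtp (chr11:58199306-58199555, plus strand): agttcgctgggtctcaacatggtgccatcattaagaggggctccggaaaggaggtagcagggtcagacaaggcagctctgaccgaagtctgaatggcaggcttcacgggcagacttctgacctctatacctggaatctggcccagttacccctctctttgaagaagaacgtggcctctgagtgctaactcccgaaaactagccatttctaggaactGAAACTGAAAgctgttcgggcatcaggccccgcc
Irgm1 (chr11:48871421-48871670, minus strand): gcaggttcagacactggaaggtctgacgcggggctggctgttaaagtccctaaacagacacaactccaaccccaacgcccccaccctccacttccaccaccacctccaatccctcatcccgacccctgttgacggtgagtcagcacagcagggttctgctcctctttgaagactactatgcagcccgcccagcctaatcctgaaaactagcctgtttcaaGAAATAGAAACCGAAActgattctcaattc
Ifit3 (chr19:34583279-34583528, plus strand): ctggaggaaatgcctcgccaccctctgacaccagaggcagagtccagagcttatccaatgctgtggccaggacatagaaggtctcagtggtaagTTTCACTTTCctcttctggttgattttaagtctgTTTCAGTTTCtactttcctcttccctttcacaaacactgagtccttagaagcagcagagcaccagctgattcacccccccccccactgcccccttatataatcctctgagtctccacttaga
Cxcl10 (chr5:92348890-92349139, minus strand): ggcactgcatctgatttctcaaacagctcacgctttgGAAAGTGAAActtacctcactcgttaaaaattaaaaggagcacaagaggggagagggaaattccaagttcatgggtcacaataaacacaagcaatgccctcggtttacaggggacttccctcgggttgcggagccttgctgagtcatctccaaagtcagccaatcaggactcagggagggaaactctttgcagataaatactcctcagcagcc
In Ddx60, Irgm1 and Ifit3 the element occurred 2 times, and in Irgm1 the copies overlap. The Irgm1 stretch lies inside the gene as GENCODE M21 annotates it (chromosome 11, 48861968 to 48871683), which begins farther upstream than the RefSeq start used here. In Slfn8 and Ifit3 it lay on the opposite strand. These are the genes whose log2 fold changes were -1.89, -0.81, -1.42 and -1.40 for Ddx60, Irgm1, Ifit3 and Slfn8, -0.99 for Igtp and -4.03 for Cxcl10.

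Individual mice differed in how far the 52 genes moved together. The median ratio of the 52 genes to their XX mean was 0.729 to 1.498 in XX libraries and 0.896 to 4.04 in XY- libraries. The highest XX library, control 50, had 48 of 52 genes above the XX median. XY- control 16 (0.896) had only 2 of 52 genes above every XX mouse, and stressed XY- mouse 15 (1.11) and XY- control 19 (1.22) had 7 each. At the other end, stressed mouse 41 (4.04) and controls 36 (3.65) and 13 (2.91) each had 51 of 52. High and low XY- libraries occurred in both treatments. Controls 16 and 19 are the only XY- controls of cohort 3, in which all XX mice were stressed. The XY- controls of cohorts 1 and 2 had ratios from 1.81 to 3.65. The stressed XY- mice of cohort 3 had 1.52, 3.04 and 4.04, and stressed mouse 15 is of cohort 1.

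**Figure D4:**
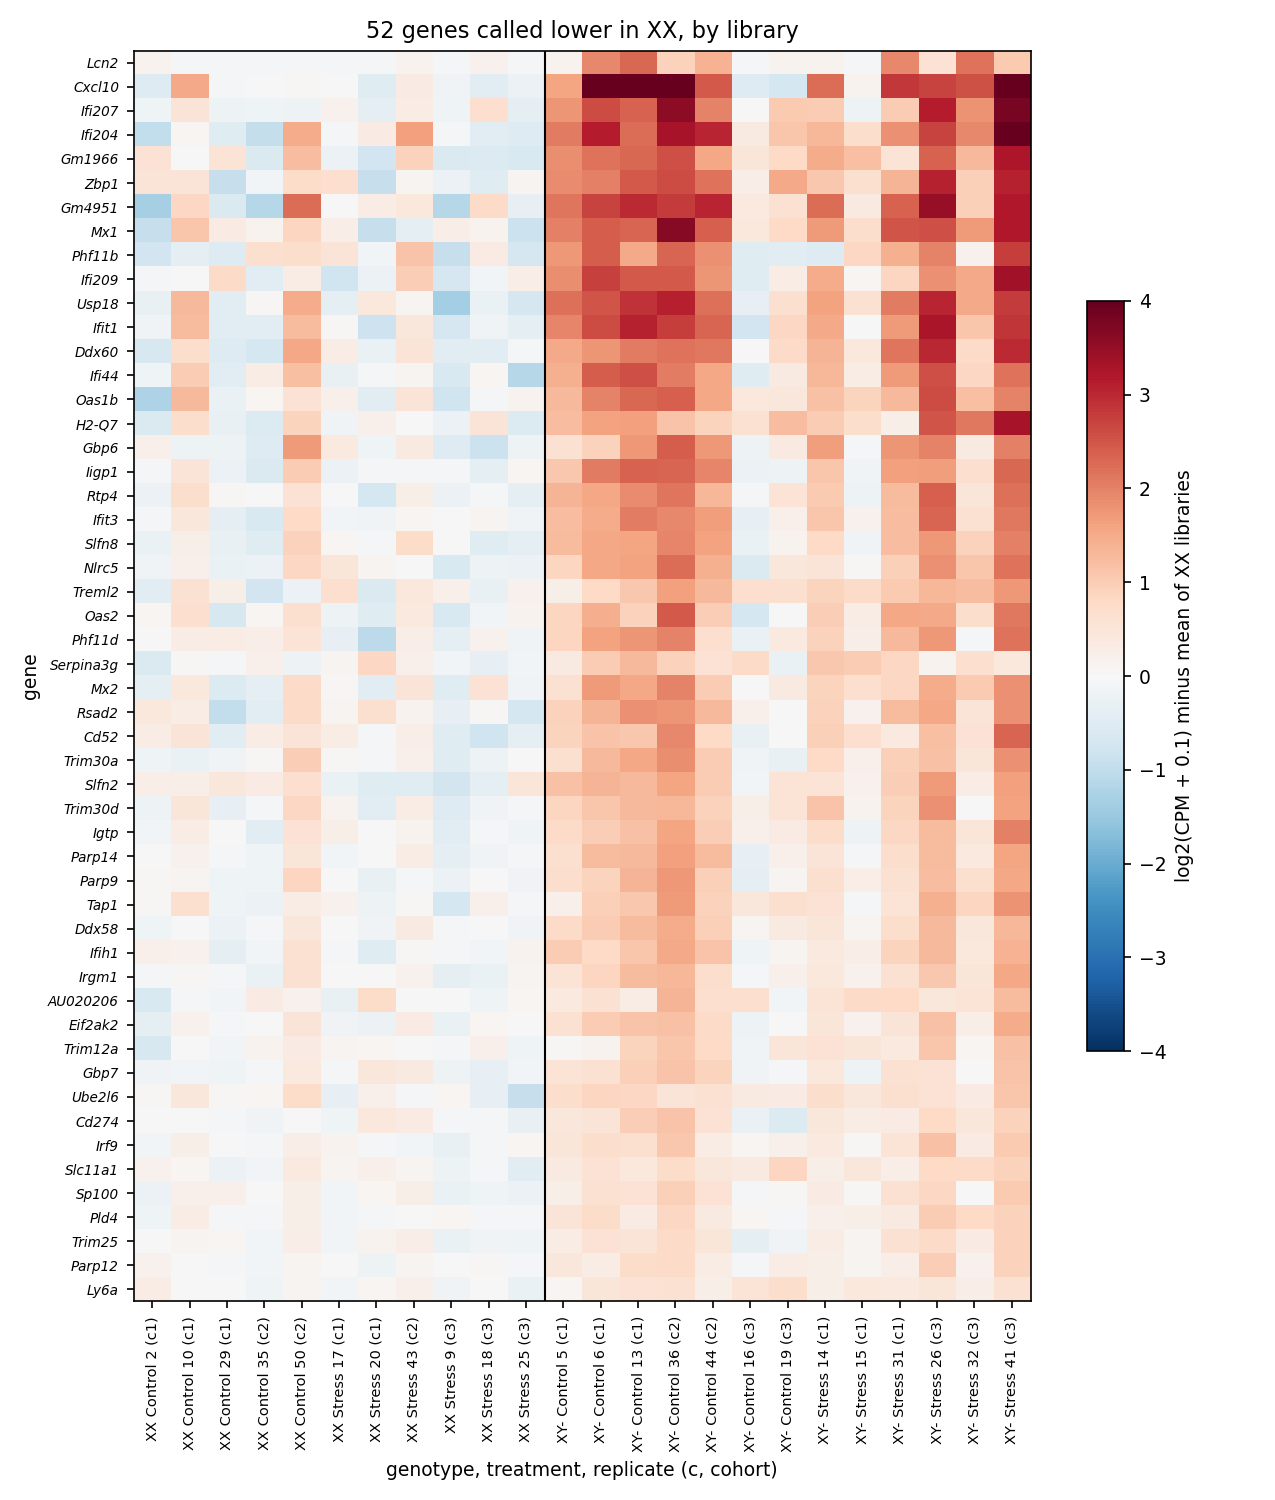
Level of the 52 genes called lower in XX (rows, from the largest to the smallest fall) in 24 libraries (columns, labelled with cohort), as log2(CPM + 0.1) minus the mean of the XX libraries. XY- controls 16 and 19 and stressed mouse 15 are pale over most rows, and stressed mouse 41 and control 36 are dark.

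Treatment and cohort were not balanced within genotypes: all XX mice of cohort 3 were stressed and all XY- mice of cohort 2 were controls. Within cohorts 1, 2 and 3 the medians of the 52 genes were -1.10, -1.24 and -1.75, with 16, 2 and 5 autosomal genes called, and all of the 52 that were tested lay below 0. In control mice alone 17 genes were called and the median of the 52 was -1.28, and in stressed mice alone 1 was called with a median of -1.33. The interaction of genotype with treatment called 0 of 18551 genes (0%) by edgeR, limma-voom and DESeq2, and 689 had an unadjusted edgeR p below 0.05 (3.71%; 340, or 1.83%, below 0). The smallest p belonged to Tmem37 (-2.004, SE 0.501) and Sumo2 (0.35, SE 0.0873), both at an edgeR adjusted p of 0.948.

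The same chromosomal contrast in mice with testes, 12 XXSry against 12 XY-Sry mice, shares no library with the comparison above. It called 0 of 18527 autosomal genes (0%) by edgeR, with 990 at an unadjusted p below 0.05 (5.34%; 2.47% with XXSry lower), 0 by limma-voom and 5 by DESeq2. Of the 52 genes, 51 were tested there. All 51 lay below 0, with a median of -0.55, and 24 had an unadjusted edgeR p below 0.05. Over all autosomal genes tested in both contrasts, 9091 of 18384 lay below 0. The genes move together, so the 51 signs are not 51 independent results. Mx1 had 0.196 ± 0.0763 CPM in XXSry and 0.778 ± 1.31 in XY-Sry mice (-1.40, SE 0.582, edgeR adjusted p = 0.756), and Ifit1 had 1.94 ± 0.449 against 5.15 ± 6.07 CPM (-1.19, SE 0.403). Ddx58 had 6.18 ± 0.477 against 7.55 ± 3.78 CPM (-0.27, SE 0.188). In XY-Sry mice the SD of Mx1 and Ifit1 was above the mean. The transcript 1700030C10Rik had 1.01 ± 0.434 against 0.394 ± 0.163 CPM, a difference of 1.22 (SE 0.282) beside 1.21 with ovaries.

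Whether the chromosomal difference itself differed between ovaries and testes was tested in 1 fit over the 48 NAc libraries. It called 0 of 18820 autosomal genes (0%) by edgeR, limma-voom and DESeq2, and 539 had an unadjusted edgeR p below 0.05 (2.86%; 1.57% below 0). For Ddx58 the difference of differences was -0.70 (SE 0.227) and for Usp18 it was -1.47 (SE 0.533), both at an edgeR adjusted p of 1. The smallest p were those of Mmrn2 (-0.51, SE 0.133) and Klf10 (0.66, SE 0.186). No gene passed the test of a difference between gonad types.

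In the prefrontal cortex (PFC) of the same 24 animals, XX minus XY- called 17 of 18076 autosomal genes (0.094%), 11 lower (0.0609%) and 6 higher (0.0332%), and 1630 had an unadjusted p below 0.05 (9.02%; 4.76% with XX lower). DESeq2 called 107. Of the 52 genes, 51 were tested in the PFC, all 51 lay below 0 with a median of -0.59, and 46 had an unadjusted p below 0.05. Over all autosomal genes tested in both regions, 8588 of 17659 lay below 0 in the PFC. Here too the 51 signs are not independent of each other. Called in both regions were Ifi207 (-1.92, SE 0.411 in the PFC), Ddx60 (-1.17, SE 0.223), Lcn2 (-2.32, SE 0.392), Ube2l6 (-0.34, SE 0.0736) and, higher in XX, Pcdhb8 (0.38, SE 0.0793). Mx1 averaged 0.275 ± 0.1503 CPM in XX against 0.615 ± 0.642 in XY- libraries there (-1.05, SE 0.410), and Ddx58 had 5.39 ± 0.658 against 7.32 ± 2.42 CPM (-0.43, SE 0.127).

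The interaction of genotype with region called 0 of 19035 genes (0%) by edgeR and limma-voom and 1 by DESeq2, and 744 had an unadjusted edgeR p below 0.05 (3.91%; 2.22% below 0). The values for Ddx58 and Mx1 were -0.49 (SE 0.194) and -1.50 (SE 0.585), both at an edgeR adjusted p of 0.991. Gm12408 (-2.39, SE 0.560) and Gpr83 (-0.37, SE 0.0919) had the smallest p. Across the mice of 1 genotype, NAc and PFC levels of Ddx58, Mx1, Mx2, Slfn8, Usp18 and Ly6a were compared in 12 relations. Levels were on the log2(CPM + 0.1) scale and were not adjusted for treatment or cohort. A shift with treatment or cohort in both regions would therefore enter these correlations. In 13 XY- mice the interferon genes other than Ly6a had Pearson r from -0.121 to 0.32 (permutation p from 0.288 to 0.819) and Spearman rho from 0.17 to 0.412 (permutation p from 0.163 to 0.58). In 11 XX mice the same 5 genes had r from -0.237 (Usp18) to 0.474 (Ddx58, permutation p = 0.148) and rho from -0.245 to 0.291. Ly6a in 13 XY- mice had r = 0.473 (permutation p = 0.102, adjusted p = 0.591) and rho = 0.516 (permutation p = 0.0728, adjusted p = 0.437). Ly6a in 11 XX mice had r = 0.767 (permutation p = 0.0049, adjusted p = 0.0588) and Spearman rho = 0.864 (permutation p = 0.00113, adjusted p = 0.0136), and r fell to 0.45 without the 2 mice farthest from the median.

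**Figure D5:**
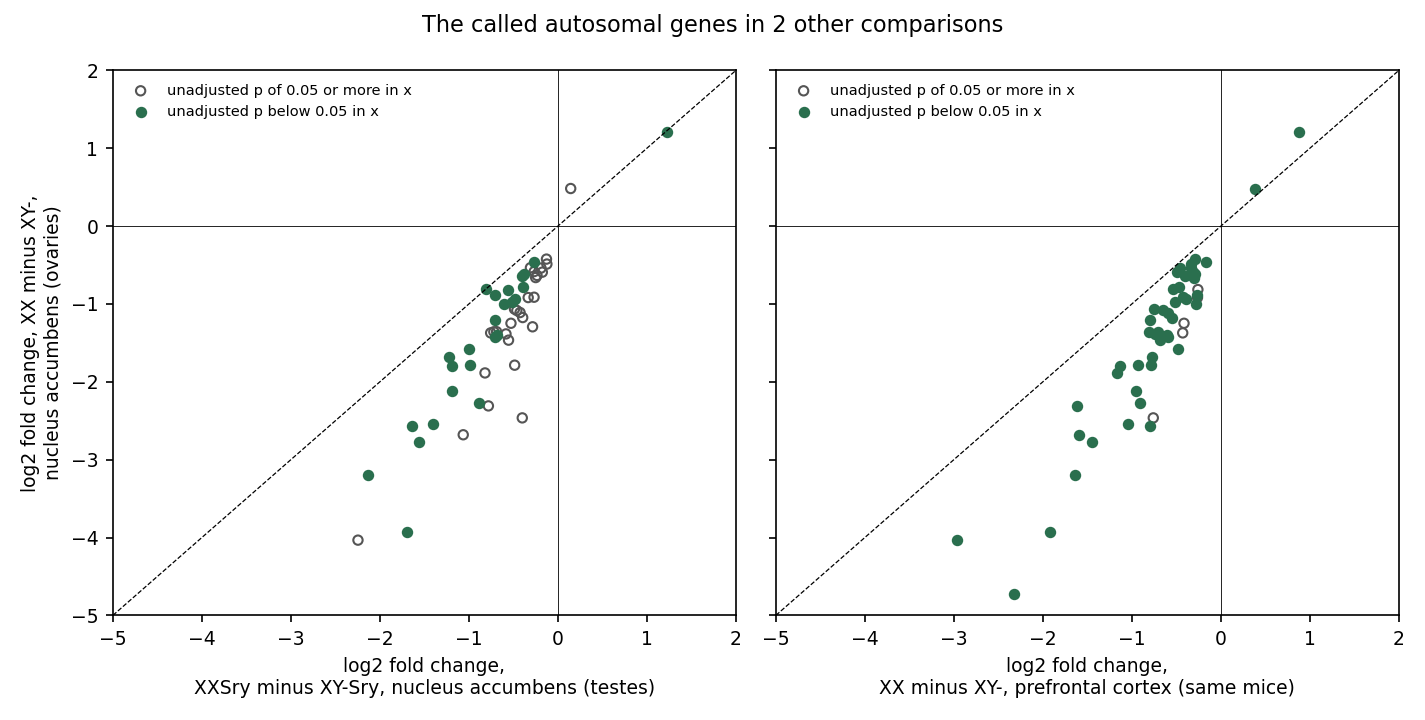
Log2 fold change of the called autosomal genes in the NAc of mice with ovaries (vertical axis) against XXSry minus XY-Sry in the NAc (left) and XX minus XY- in the PFC of the same mice (right), filled where the unadjusted p on the horizontal axis is below 0.05; the dashed line marks equal values. All 51 genes tested of those called lower lie below 0 in both panels, with medians of -0.55 and -0.59.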

How the data were processed

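The values analysed are raw read counts per gene as deposited by the authors, 1 table per brain region with 1 column per library and 0 sample columns left unused. Per the labels' protocols, RNA came from tissue punches and libraries of polyadenylated RNA were read in pairs. The submitters' processing notes name HISAT2 2.2.0, Trimmomatic 0.38 and FastQC 0.11.9, besides DESeq2 and edgeR, and the build GRCm38. Which tool counted, with what strand setting, annotation and filter: not given in the sources used here. Of 19918 gene IDs, 19795 matched GENCODE M21.

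Counts were tested with edgeR 4.0.16 in R 4.3.3 (robust quasi-likelihood fit, TMM scaling, filterByExpr by group) with genotype, treatment and cohort. P-values were adjusted by Benjamini-Hochberg over all 19400 genes tested on all chromosomes, of which 78 were called at 0.05, and only autosomal rows are described. SE is the log2 fold change divided by the root of F. The test was checked on simulated data in which genes varied independently, with the same dispersion for all genes and both genotypes. Only genes above 1 CPM were changed there. The called genes move together and many spread more in XY- mice, so the check does not show how the test behaves for them. Alternatives were limma 3.58.1 (voom), DESeq2 1.42.0, other scalings, filters and covariates, subsets, and leaving out each library. Permutation tests used 100000 draws and were two-sided. Counts differed beyond sampling noise in each of 61 pairs of libraries from 1 group (chi-square at least 14.4 times its degrees of freedom).

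Libraries of the 2 regions are paired by animal, per the titles; an animal's deviations correlated at a median of 0.104 between regions, above 0.1 in 12 of 24 animals, and for 5 animals the NAc library was closest to its own PFC library.

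A rule chose the named genes. Among called autosomal genes averaging 0 log2 CPM or more and without a predicted-gene name, these were the 12 highest and 12 lowest fold changes and the 6 smallest p. From each list described, up to 6 called members with the smallest p and the 3 most abundant uncalled ones were added, and 2 genes for each interaction without a call. Genes outside the rule are marked as chosen after their values were seen. The genes described, the 34 lists and the tests were chosen with earlier results of these data known.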

Additional observations from a re-analysis of the deposited data

Results flagged for a closer look

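Among 128 groups (32 named genes in 4 groups of genotype and treatment), 14 had a highest library set apart from the others by Dixon's criterion. For normally distributed values chance alone meets it in about 1 of 20 groups. The CPM used were not log-transformed and the genes move together, so 14 of 128 cannot be read as an excess over chance. They came from 5 libraries. XX control 50 stood apart for Ddx58 (8.40 CPM), Ifi204 (0.609 CPM), Gbp6 (1.22 CPM) and Gbp7 (7.48 CPM), and XX control 10 for Ifi207 (0.0838 CPM) and Cxcl10 (0.363 CPM). Stressed XX mouse 43 stood apart for Ddx58 (7.91 CPM), Ifi204 (0.687 CPM), Slfn8 (2.00 CPM) and Pcdhb8 (9.35 CPM). In XY- mice, control 36 stood apart for Mx1 (4.28 CPM), and stressed mouse 41 for Ifi204 (4.54 CPM), Cxcl10 (3.28 CPM) and Cd52 (5.23 CPM). Without XX control 50, XX control 10, stressed XX mouse 43 and stressed XY- mouse 41, each left out on its own, 58, 61, 39 and 51 autosomal genes were called, and without XY- control 36 the number was 19.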

How the results depend on the processing

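The number of autosomal genes called between XX and XY- mice depended on the processing. In every alternative run, each of the 52 genes called lower that was tested lay below 0. They were chosen for that direction in these libraries, and the alternatives reuse the same counts, so this is not independent support. DESeq2 called 128 genes, all 54 among them, and limma-voom called 13. A filter of at least 1 CPM in at least 11 libraries left 33 calls among 14206 genes, 32 of them among the 54. Within cohorts 1, 2 and 3 the counts were 16, 2 and 5, in control mice 17 and in stressed mice 1, all with fewer mice. With cohorts 1 and 3 only, a split chosen after seeing the data, 5 were called, and with cohorts 1 and 2 only 43. Leaving out 1 library at a time gave 18 to 88 calls. XXSry minus XY-Sry gave 5 calls with DESeq2 against 0, XX minus XY- in the PFC 107 against 17, and the genotype by region interaction 1 against 0. With the animal as a replicate block the region interaction also gave 0 calls, and 817 genes had an unadjusted p below 0.05. Leaving out 1 library at a time left the treatment interaction at 0 calls. The 32 called named genes had 1268 values under alternatives, of which 395 (31.2%) lost the call and 0 reversed. Ddx58 kept its call in 37 of 40, but Gbp7 in 15 of 40, Gm4951 in 15 of 39, Cd52 in 16 of 40 and Ifit1 in 18 of 40. Uncalled named genes gained a call in 18 of 4271 values. Genes below 1 CPM, such as Lcn2, Ifi207 and Cxcl10, rest on few reads, and counts without molecular identifiers cover counting error only.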
